A study of Mus musculus with 9 samples.

Results

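The 10 genes described here make the pathway by which a cell shows peptides of its own proteins to CD8+ T cells on major histocompatibility complex (MHC) class I molecules, together with the gene of the checkpoint ligand PD-L1. They were taken by name: the class I heavy chains H2-K1 and H2-D1, the light chain B2m, the peptide transporter Tap1 and Tap2, the loading chaperone Tapbp, the immunoproteasome subunits Psmb8 and Psmb9, the class I transactivator Nlrc5, and Cd274, which encodes PD-L1. All 10 were found among the 55276 gene symbols of the count table, and all 10 were among the 17672 genes that passed the filter on low counts. The cells were PPTR cells, a mouse intrahepatic cholangiocarcinoma line from a mouse model with Prom1CreERT2, a tamoxifen-inducible Cre driven by Prom1 that acts on floxed alleles, and the green reporter Rosa-ZsGreen. These alleles are shared by all 9 libraries. The control group, labelled WT for Vcam1, had 3 libraries, and the clones KO1 and KO2, each grown from a single cell after CRISPR/Cas9 editing of Vcam1, had 3 libraries each. Each clone is 1 clone, so that an effect of the editing and a property of the cell that founded the clone cannot be told apart. The libraries of a group came from different passages of the same cells, and p-values therefore measure the spread between passages, not between independently edited lines. No interferon or other immune stimulus is named in the labels.

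In this pathway proteasomes cut cytosolic proteins into peptides, and the immunoproteasome subunits replace the constitutive catalytic subunits in cells that have met interferon-gamma. The Tap1-Tap2 heterodimer pumps the peptides into the endoplasmic reticulum, where tapasin, the product of Tapbp, bridges the transporter to a heavy chain paired with the B2m light chain and helps it to take up a peptide. Nlrc5 binds class I promoters through partners such as the RFX complex and raises transcription of the heavy chains, B2m and other genes of the pathway. PD-L1 on the surface of a tumour cell binds PD-1 on T cells and restrains them. Tumours often lower class I genes, and interferon-gamma commonly raises class I genes and Cd274 together.

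Of the 10 genes, 7 lie on chromosome 17 in or beside the mouse MHC, in GRCm38 coordinates of GENCODE release M21. Tapbp (chr17:33915899-33929292) and H2-K1 (chr17:33996017-34000347) are separated by 66.7 kb. Psmb9 (chr17:34181987-34187764), Tap1 (chr17:34187553-34197225), Psmb8 (chr17:34197721-34201454) and Tap2 (chr17:34203527-34216321) form a cluster, in which Psmb9 and Tap1 overlap by 0.2 kb on opposite strands. H2-D1 (chr17:35262730-35267499) lies 1046.4 kb beyond Tap2. B2m is at chr2:122147686-122153083, Nlrc5 at chr8:94434356-94527272 and Cd274 at chr19:29367455-29388095. The reads were counted by strand, which matters for the overlap of Psmb9 and Tap1.

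Promoter windows were given in RefSeq (GRCm38.p6) for 8 of the 10 genes, from 250 bases before to 50 bases after the annotated start. Those of 5 genes are printed because the pair of heavy chains shares a promoter design and fell in both clones, while Tapbp and Psmb8 rose in both and B2m in KO2. Capitals mark matches, on either strand, to 5 motifs: an IRF motif (AANNGAAA), the NF-kappaB consensus, the core of a cyclic AMP response element (TGACG), the box bound by NF-Y (CCAAT) and a GAS motif, the gamma-interferon activation site (TTCNNNGAA).
H2-K1 (chr17:34000298-34000597, minus strand): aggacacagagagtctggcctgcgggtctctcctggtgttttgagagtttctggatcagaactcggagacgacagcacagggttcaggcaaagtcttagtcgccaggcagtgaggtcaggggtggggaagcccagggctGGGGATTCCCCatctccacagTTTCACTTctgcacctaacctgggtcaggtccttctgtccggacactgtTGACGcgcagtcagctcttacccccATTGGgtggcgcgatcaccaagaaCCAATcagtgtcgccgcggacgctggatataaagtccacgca
H2-D1 (chr17:35262844-35263143, plus strand): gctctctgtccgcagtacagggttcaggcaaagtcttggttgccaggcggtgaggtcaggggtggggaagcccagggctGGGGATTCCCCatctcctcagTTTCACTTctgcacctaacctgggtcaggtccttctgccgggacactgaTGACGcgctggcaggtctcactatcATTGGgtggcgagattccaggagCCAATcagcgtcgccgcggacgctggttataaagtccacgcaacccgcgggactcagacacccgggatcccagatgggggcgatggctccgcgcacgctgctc
B2m (chr2:122147437-122147736, plus strand): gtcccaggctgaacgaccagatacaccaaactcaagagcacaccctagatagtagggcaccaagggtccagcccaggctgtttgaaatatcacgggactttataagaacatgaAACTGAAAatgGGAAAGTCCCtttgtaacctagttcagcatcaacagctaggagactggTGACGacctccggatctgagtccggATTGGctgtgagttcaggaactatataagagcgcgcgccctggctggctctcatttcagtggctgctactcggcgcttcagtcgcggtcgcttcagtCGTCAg
Tapbp (chr17:33919228-33919527, plus strand): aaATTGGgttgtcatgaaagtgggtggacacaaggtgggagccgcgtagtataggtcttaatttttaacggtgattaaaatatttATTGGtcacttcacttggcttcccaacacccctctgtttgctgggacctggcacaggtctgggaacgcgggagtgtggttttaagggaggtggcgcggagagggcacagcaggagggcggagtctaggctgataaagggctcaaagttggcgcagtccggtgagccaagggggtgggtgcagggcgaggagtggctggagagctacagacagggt
Psmb8 (chr17:34197945-34198244, plus strand): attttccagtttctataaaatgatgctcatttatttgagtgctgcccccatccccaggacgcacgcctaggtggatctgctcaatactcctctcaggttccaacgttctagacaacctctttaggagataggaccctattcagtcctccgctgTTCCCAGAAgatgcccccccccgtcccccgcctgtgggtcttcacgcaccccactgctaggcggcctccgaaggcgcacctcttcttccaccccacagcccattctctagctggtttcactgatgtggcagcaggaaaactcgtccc
The H2-K1 and H2-D1 windows hold an identical run of 47 bases, which begins 141 bases before the start in H2-K1 and 201 bases before it in H2-D1 and is shown here because it carries the NF-kappaB match of both.
Shared run: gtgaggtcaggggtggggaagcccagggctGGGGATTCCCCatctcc
In both heavy chain windows the order was NF-kappaB, IRF, TGACG and CCAAT, with 2 overlapping NF-kappaB matches, each of which matches the consensus on both strands. The B2m window had the same kinds of match, with the IRF match ahead of the NF-kappaB match. Among the 8 windows, 4 held the IRF motif (B2m, Cd274, H2-D1 and H2-K1), 3 the NF-kappaB consensus, 5 TGACG, 6 CCAAT and 1, that of Psmb8, the GAS motif. The same motifs stood in 23.9%, 8.5%, 20.8%, 37.4% and 8.3% of all 32851 windows of this length. The start used for H2-D1, Psmb8, Psmb9 and Tapbp lies well inside the GENCODE gene, and other starts were not searched.

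Library totals lay between 53415907 and 125223073 counts, and every member had at least 61 counts in every library, the lowest being Nlrc5 in a KO1 library, so that counting error weighed most on Nlrc5. Vcam1 had 248, 220.4 and 329 CPM (counts scaled for library size) in the control libraries, 98.8, 92.4 and 128 in KO1 and 119, 99.3 and 82.9 in KO2. Both clones thus kept transcript at a lower level than all controls, and a guide in exon 2 need not remove the transcript. The paper reports that both clones had lost Vcam1 by qRT-PCR and by flow cytometry. These measures are unlike CPM: the forward primer that the paper gives overlaps its guide sequence, flow cytometry measures protein, and CPM count reads over the whole gene. The cells were labelled as a liver cancer line. Of 12 biliary and liver cancer epithelium markers 10 were tested, and 7 fell and 1 rose in each clone. Krt19 and Epcam, which mark biliary epithelium, were at 2128 to 2405 and 17.4 to 27.2 CPM in the controls and at most 0.226 and 0.0898 CPM in the clones, whereas Sox9, also biliary, stayed at 107 CPM or more in every library and Spp1 rose from a mean of 2473 CPM to 10570 CPM in KO1 and 9637 CPM in KO2. The 8 hepatocyte markers summed to 631 to 1008 CPM in the controls and to 3.03 CPM or less in every clone library. Of 12 fibroblast and stellate cell markers, the summed level was 431.0 to 836.5 CPM in the controls, 12560.0 to 15970.0 CPM in KO1 and 6767 to 9107 CPM in KO2, and 8 of 12 in the controls and 9 of 12 in each clone had a mean of 1 CPM or more. Among the 9 tested, 6 rose and 1 fell in KO1, and 7 rose and none fell in KO2. Beside these counts and those of the epithelium markers, 59.8% of all genes tested changed in KO1 and 51.3% in KO2 (adjusted p under 0.05, edgeR). Col1a1 made the largest part of the clone sums (means of 8526 CPM in KO1 and 4733 CPM in KO2), while Dcn fell from a mean of 74.6 CPM to 4.34 CPM in KO1. In bulk libraries a change in the make-up of a culture and a change in RNA per cell cannot be told apart. The part of these shifts in the results below was not tested. The 10 haematopoietic markers, checked because leukocytes carry much class I, summed to 7.66 to 20.9 CPM in the controls, 9.17 to 12.0 CPM in KO1 and 7.11 to 9.75 CPM in KO2. Single markers moved within these sums: Csf1r fell from a mean of 7.5 CPM to 1.28 in KO1 and 0.51 in KO2, Lyz2 rose from 0.114 to 4.08 CPM in KO1, and Ptprc, at 0.443 CPM or less everywhere, fell in both clones.

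The heavy chains H2-K1 and H2-D1 and the transactivator Nlrc5 fell in both clones, Tap2, Tapbp, Psmb8 and Psmb9 rose in both, and B2m and Tap1 rose in KO2. Against the controls, 7 of the 10 genes changed in KO1 (4 higher and 3 lower), at an adjusted p under 0.05 in edgeR's quasi-likelihood test. In the same comparison 59.8% of all genes tested were called, 29.9% higher and 29.9% lower, so the count of 7 of 10 stands near the background of these cells. In KO2 9 of the 10 changed (6 higher and 3 lower), against 51.3% of all genes (25.2% higher and 26.1% lower). With both clones pooled 7 changed (4 higher and 3 lower), against 42.8% of all genes (21.6% higher and 21.2% lower). The libraries of the compared groups did not overlap for 7, 9 and 6 of the 10 genes in these comparisons, and for 66.0%, 62.1% and 44.2% of all genes. The genes that were lower were the same in each clone: H2-K1, H2-D1 and Nlrc5. The median log2 fold change of the 10 genes was 0.16 in KO1 and 0.89 in KO2, beside 0.02 and 0.0 for all genes tested. The comparisons of the clones share the 3 control libraries, so they are not independent of each other.

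**Figure D1:**
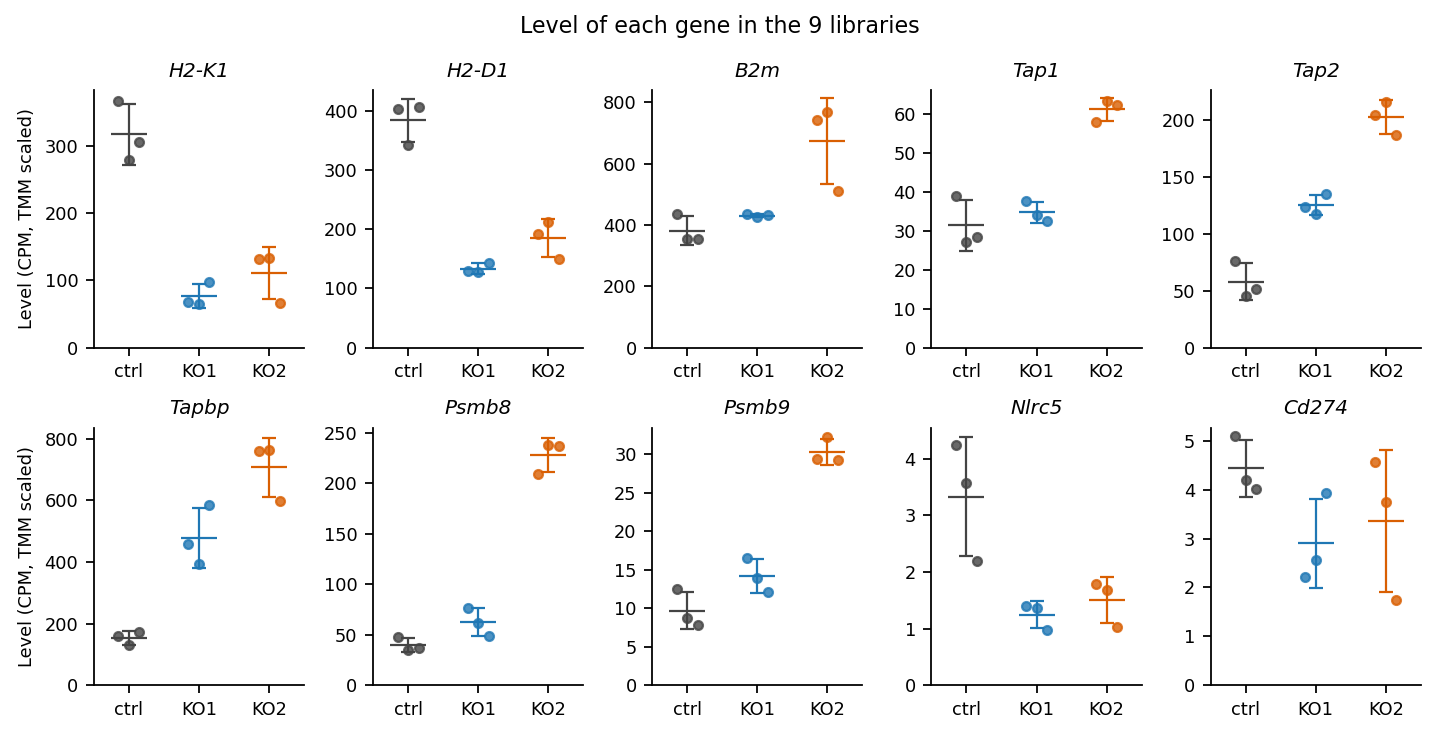
Level of each of the 10 genes in CPM (vertical axis, starting at 0, its own scale in each panel) in the 3 control (ctrl), 3 KO1 and 3 KO2 libraries; points are libraries, and the bar and whiskers are the mean and SD. H2-K1 and H2-D1 sit below all controls in all 6 clone libraries, and Tap2, Tapbp and Psmb8 sit above them. Cd274 overlaps the controls in KO2 and lies just below them in KO1.

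H2-K1, a classical heavy chain, was measured at 368, 279 and 307 CPM in the control libraries, 67.5, 65.1 and 98.0 CPM in KO1 and 132, 134 and 66.1 CPM in KO2. All 6 clone libraries were below all 3 controls, and the clones overlapped each other because KO2 replicate 3 was as low as KO1. H2-K1 fell by 2.05 ± 0.28 (SE, n = 3 against 3) on the log2 scale in KO1, which is 4.13-fold, with an adjusted p of 2.0e-04 in edgeR's quasi-likelihood test. In KO2 it fell by 1.52 ± 0.28 on the log2 scale, or 2.87-fold, with an adjusted p of 0.0014 in the same edgeR test. H2-D1, the other classical heavy chain, was at 403, 342 and 408 CPM in the controls, 129, 127 and 144 CPM in KO1 and 193, 212 and 150.0 CPM in KO2. Its groups did not overlap at all: the controls were highest, KO2 came next and KO1 was lowest. H2-D1 fell by 1.53 ± 0.15 on the log2 scale in KO1 (adjusted p = 1.9e-05, edgeR) and by 1.06 ± 0.14 in KO2 (adjusted p = 2.3e-04, edgeR). Both calls held in each of 15 alternative fits, with H2-K1 between -2.26 and -1.27 and H2-D1 between -1.67 and -0.94 on the log2 scale over both clones. Of the 31-base words in their transcripts, 20.27% for H2-K1 and 27.65% for H2-D1 also occur in transcripts of other genes, so that a share of their reads was divided by estimation.

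B2m, the light chain that every class I molecule needs to reach the cell surface, did not follow the heavy chains. It was at 435.5, 354 and 354 CPM in the controls, 435.0, 424 and 432 CPM in KO1 and 741, 769 and 510.5 CPM in KO2. The KO1 libraries lay within the range of the controls, and all KO2 libraries lay above it. The change was 0.18 ± 0.16 on the log2 scale in KO1 (adjusted p = 0.39, edgeR) and 0.82 ± 0.17 in KO2 (adjusted p = 0.0025, edgeR), a 1.77-fold rise in KO2.

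Of the chains of the peptide transporter, Tap2 rose in both clones and Tap1 in KO2. Tap1 was at 38.9, 27.0 and 28.3 CPM in the controls, 37.7, 33.9 and 32.6 CPM in KO1 and 57.8, 63.3 and 62.4 CPM in KO2. KO1 overlapped the controls and KO2 did not. Its change was 0.15 ± 0.15 on the log2 scale in KO1 (adjusted p = 0.41, edgeR), which turned to -0.02 without control replicate 2, and 0.96 ± 0.15 in KO2 (adjusted p = 4.5e-04, edgeR). Tap2 was at 76.1, 45.5 and 51.5 CPM in the controls, 123, 118 and 135 CPM in KO1 and 205, 216 and 187 CPM in KO2. All 3 groups were apart, in the order control, KO1, KO2. Tap2 rose 2.17-fold in KO1 (log2 change 1.12 ± 0.18, adjusted p = 4.9e-04, edgeR) and 3.51-fold in KO2 (1.81 ± 0.18, adjusted p = 3.2e-05, edgeR).

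Tapbp, which encodes tapasin, had the largest rise of the 10 genes in KO1. It was at 159, 129 and 173 CPM in the controls, 458, 393 and 584 CPM in KO1 and 759, 764 and 597 CPM in KO2. Every clone library was above every control, and every KO2 library was above every KO1 library, the nearest by a narrow gap. The rise was 3.11-fold in KO1 (log2 change 1.64 ± 0.18, adjusted p = 5.2e-05, edgeR) and 4.6-fold in KO2 (2.2 ± 0.19, adjusted p = 1.1e-05, edgeR). Tapbp and H2-K1 are neighbours among the antigen presentation genes of chromosome 17, and they moved in opposite directions in both clones, as the plot in chromosomal order shows.

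The immunoproteasome subunits rose mainly in KO2. Psmb8 was at 48.0, 35.0 and 37.1 CPM in the controls, 76.4, 61.8 and 48.7 CPM in KO1 and 208, 238 and 236 CPM in KO2. The lowest KO1 library was just above the highest control, while KO2 stood far above both. Psmb8 rose 5.68-fold in KO2 (log2 change 2.51 ± 0.19, adjusted p = 4.8e-06, edgeR), the largest change of any of the 10 genes there, and 1.56-fold in KO1 (0.64 ± 0.18, adjusted p = 0.011, edgeR). The KO1 call was lost without control replicate 2 (0.48, adjusted p = 0.071, edgeR) and without KO1 replicate 1 (0.42, adjusted p = 0.077, edgeR). Psmb9 was at 12.4, 8.78 and 7.85 CPM in the controls, 16.5, 13.9 and 12.1 CPM in KO1 and 29.4, 32.2 and 29.2 CPM in KO2. KO1 overlapped the controls, and KO2 did not. Psmb9 rose 3.12-fold in KO2 (1.64 ± 0.19, adjusted p = 9.0e-05, edgeR). Its change of 0.55 ± 0.19 in KO1 passed (adjusted p = 0.031, edgeR) but held in only 6 of 15 alternative fits, whose adjusted p ran from 0.0067 to 0.16.

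Nlrc5 was low in these cells and lower in the clones. It was at 4.24, 3.56 and 2.19 CPM in the controls, 1.39, 1.37 and 0.973 CPM in KO1 and 1.78, 1.68 and 1.03 CPM in KO2. All clone libraries were below all controls, and the clones overlapped. Nlrc5 fell by 1.42 ± 0.33 on the log2 scale in KO1 (adjusted p = 0.0044, edgeR) and by 1.15 ± 0.33 in KO2 (adjusted p = 0.015, edgeR). The KO2 call was lost without control replicate 1 (-0.94, adjusted p = 0.064, edgeR) and held in 14 of 15 alternative fits.

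Cd274 was at 5.10, 4.21 and 4.01 CPM in the controls, 2.22, 2.56 and 3.94 CPM in KO1 and 4.57, 3.75 and 1.74 CPM in KO2. The KO1 libraries were all below the controls by a small margin in the highest of them, and the KO2 libraries overlapped the controls and KO1. The log2 change was -0.61 ± 0.36 in KO1 (adjusted p = 0.17, edgeR) and -0.41 ± 0.36 in KO2 (adjusted p = 0.37, edgeR), and Cd274 was not called in any of 15 alternative fits of either comparison. It was the only one of the 10 genes that passed in neither clone.

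**Figure D2:**
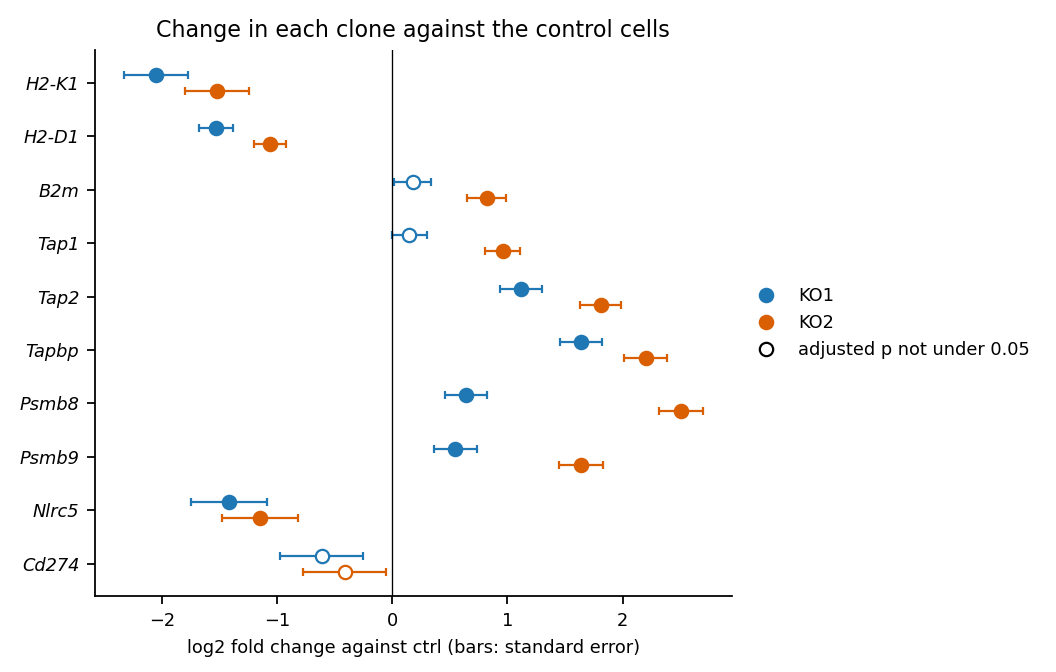
Log2 fold change against the control cells (horizontal axis) with its standard error for each of the 10 genes in KO1 (blue) and KO2 (orange); open points did not reach an adjusted p under 0.05. H2-K1, H2-D1 and Nlrc5 lie left of 0 in both clones, Tap2, Tapbp, Psmb8 and Psmb9 lie right of it, and for each of these the KO2 point is further right.

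With the clones pooled against the controls, the differences between the clones became part of the spread. H2-K1 changed by -1.76 ± 0.27, H2-D1 by -1.27 ± 0.18, Nlrc5 by -1.28 ± 0.3, Tap2 by 1.51 ± 0.27 and Tapbp by 1.95 ± 0.25 on the log2 scale, with adjusted p from 2.7e-04 to 0.0078 in edgeR's test. Psmb8 (1.86 ± 0.59, adjusted p = 0.03, edgeR) and Psmb9 (1.2 ± 0.37, adjusted p = 0.027, edgeR) passed narrowly and were lost in 7 and 5 of 15 alternative fits. B2m (0.53 ± 0.24, adjusted p = 0.1, edgeR) and Tap1 (0.61 ± 0.27, adjusted p = 0.098, edgeR) did not pass, nor did Cd274 (-0.5 ± 0.33, adjusted p = 0.24, edgeR).

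The clones were then compared with each other. Of the 10 genes, 7 were lower in KO1 than in KO2, and none was higher, whereas 38.6% of all genes differed, 20.2% higher and 18.5% lower in KO1. The remaining genes, H2-K1, Nlrc5 and Cd274, had log2 differences of -0.53 ± 0.27, -0.27 ± 0.33 and -0.21 ± 0.36 that did not pass (adjusted p = 0.15, 0.55 and 0.67, edgeR). The largest difference was that of Psmb8 (-1.87 ± 0.18, adjusted p = 8.5e-05, edgeR), followed by Psmb9 (-1.09 ± 0.19, adjusted p = 0.0021, edgeR) and Tap1 (-0.82 ± 0.15, adjusted p = 0.0023, edgeR). Tap2, B2m, Tapbp and H2-D1 differed by -0.69, -0.65, -0.56 and -0.47 on the log2 scale, with adjusted p of 0.013, 0.013, 0.034 and 0.028 in edgeR's test. Without KO2 replicate 2, only 4 of the 10 genes differed: B2m, H2-D1 and Tapbp were lost. The 7 genes called were the same as those whose clone libraries did not overlap, a pattern found in 54.9% of all genes.

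Compared per kilobase of the longest coding transcript, the order of the levels changed between the groups. In the controls B2m was highest at 443 ± 54.6 CPM per kilobase (SD, n = 3), followed by H2-K1 at 196 ± 28.1 and H2-D1 at 183 ± 17.3, which did not differ beyond their spread, and then by Tapbp at 53.1 ± 7.63. Psmb8 (24.6 ± 4.29), Tap2 (16.7 ± 4.71), Tap1 (10.6 ± 2.21) and Psmb9 (7.16 ± 1.79) followed, with overlap between Psmb8 and Tap2 and between Tap1 and Psmb9. Cd274 (1.23 ± 0.16) and Nlrc5 (0.439 ± 0.138) were lowest. In KO1 Tapbp was second at 165 ± 33.5 CPM per kilobase, above H2-D1 at 63.4 ± 4.27 and H2-K1 at 47.5 ± 11.3. Psmb8 (38.3 ± 8.52) overlapped H2-K1 and Tap2 (36.4 ± 2.55) there, Tap1 (11.8 ± 0.898) overlapped Psmb9 (10.5 ± 1.65), and Cd274 (0.802 ± 0.252) and Nlrc5 (0.164 ± 0.031) were lowest. In KO2 Tapbp was second at 244 ± 32.8 and Psmb8 next at 140 ± 10.2, above H2-D1 at 88.0 ± 15.1 and H2-K1 at 68.4 ± 23.9, which overlapped. Tap2 (58.8 ± 4.31) came next and overlapped H2-K1, Psmb9 (22.4 ± 1.23) stood just above Tap1 (20.7 ± 0.991) with no overlap, and Cd274 (0.926 ± 0.402) and Nlrc5 (0.198 ± 0.0535) were lowest. With merged exons in place of that transcript, H2-D1 stood above H2-K1 in the controls and next after Tapbp in KO2, Tap2 stood above Psmb8 in the controls and above H2-K1 in both clones, and Tap1 stood above Psmb9 in KO2.

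The balance of the parts is described here by ratios of levels per kilobase, with no test. The summed heavy chains stood at 0.857 ± 0.0634 of B2m in the controls (SD, n = 3), 0.222 ± 0.0303 in KO1 and 0.199 ± 0.00855 in KO2. In KO1 the heavy chains were lower and B2m lay within the control range, and in KO2 the heavy chains were lower and B2m was higher. Tapbp stood at 0.14 ± 0.0135 of the summed heavy chains in the controls, 1.48 ± 0.118 in KO1 and 1.59 ± 0.213 in KO2, with the 6 clone libraries between 1.34 and 1.84. Tap1 stood at 0.643 ± 0.0482 of Tap2 in the controls, 0.324 ± 0.0385 in KO1 and 0.353 ± 0.0317 in KO2. H2-K1 stood at 1.07 ± 0.105 of H2-D1 in the controls, 0.743 ± 0.124 in KO1 and 0.761 ± 0.168 in KO2, whose libraries ran from 0.572 to 0.892. With merged exons the ratio of Tap1 to Tap2 was 0.381 in the controls, 0.192 in KO1 and 0.209 in KO2, and that of H2-K1 to H2-D1 was 0.726, 0.502 and 0.515, with the same order of the groups.

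The share of each immunoproteasome subunit was set against the constitutive subunit whose place it takes. Psmb8 made 14.2 ± 3.21% of Psmb8 plus Psmb5 in the controls, 25.2 ± 4.3% in KO1 and 44.1 ± 1.17% in KO2, and the 3 groups did not overlap. Psmb9 made 2.08 ± 0.448% of Psmb9 plus Psmb6 in the controls, 4.75 ± 0.635% in KO1 and 8.1 ± 0.589% in KO2, again without overlap. Psmb10, the immunoproteasome subunit outside the MHC, made 12.3 ± 0.0727% of Psmb10 plus Psmb7 in the controls, 13.0 ± 0.593% in KO1 and 21.8 ± 1.32% in KO2, with KO1 overlapping the controls. The shares depend on the length used: with merged exons that of Psmb8 was 7.41% in the controls, 14.03% in KO1 and 27.6% in KO2, and that of Psmb10 was 24.1%, 25.4% and 38.6%. The constitutive subunits moved less than their partners in KO2. Psmb6 fell in KO1 by more than Psmb9 rose there (0.55 ± 0.19), so both changes enter that share. Psmb5 changed by -0.43 ± 0.14 in KO1 and 0.23 ± 0.14 in KO2 on the log2 scale. Psmb6 changed by -0.68 ± 0.12 and -0.41 ± 0.12, and Psmb7 by 0.12 ± 0.11 and 0.64 ± 0.11, in the same order. Of these, Psmb5 in KO1, Psmb6 in both and Psmb7 in KO2 passed edgeR's test (adjusted p = 0.027, 6.9e-04, 0.015 and 7.6e-04), but Psmb5 in KO1 held in 12 and Psmb6 in KO2 in 13 of 15 alternative fits.

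**Figure D3:**
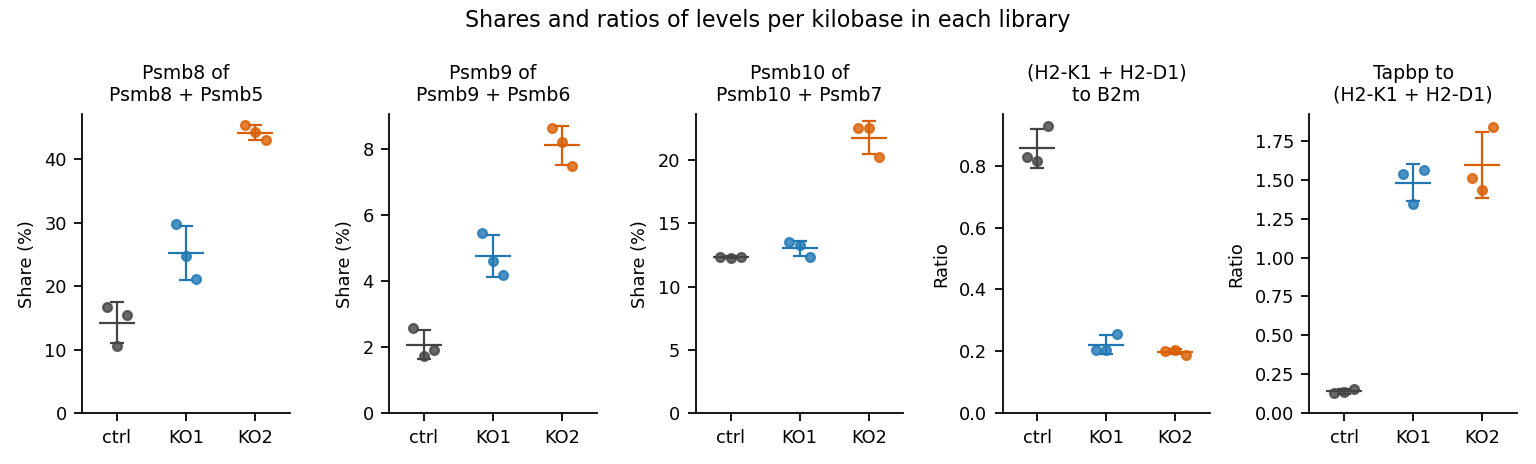
Shares of the immunoproteasome subunits (percent) and ratios of levels per kilobase in the 3 control (ctrl), KO1 and KO2 libraries; points are libraries, and the bar and whiskers are the mean and SD. The share of Psmb8 steps up from 14.2% in the controls to 25.2% in KO1 and 44.1% in KO2, while the ratio of the heavy chains to B2m is low in both clones.

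Other genes of the pathway were taken from lists by role, and the share of each list that was called is set beside the 59.8% of all genes called in KO1 and the 51.3% called in KO2. Of 5 genes for Psmb10, the PA28 regulator and proteasome assembly, 1 rose and 1 fell in KO1, and 4 rose and 1 fell in KO2 (40% and 100% called). Psmb10 rose 3.09-fold in KO2 (log2 change 1.63 ± 0.13, adjusted p = 6.7e-06, edgeR) and had a log2 change of 0.22 ± 0.12 in KO1 (adjusted p = 0.15, edgeR). The PA28 subunits Psme1 and Psme2, which open the proteasome gate, rose by 0.57 ± 0.11 and 0.76 ± 0.11 in KO2, and had values of 0.02 ± 0.11 and -0.08 ± 0.11 in KO1. Pomp, the proteasome assembly factor, rose by 0.34 ± 0.13 in KO1, a call that held in 4 of 15 alternative fits, and by 0.85 ± 0.13 in KO2. Psme3, a subunit of the nuclear PA28 regulator, fell by 0.59 ± 0.1 in KO1 and 0.6 ± 0.1 in KO2. Of the 14 genes of the constitutive 20S core, 6 fell and none rose in KO1, and 5 rose and 3 fell in KO2 (42.9% and 57.1% called). Psma6, an outer ring subunit, fell by 0.9 ± 0.12 in KO1 and 0.37 ± 0.12 in KO2, the latter called in 10 of 15 alternative fits, and Psma4, also an outer ring subunit, had values of 0.26 ± 0.13 in KO1, which did not pass, and 0.54 ± 0.13 in KO2, which did. The median log2 change of the core was -0.27 in KO1 and 0.28 in KO2. Between the clones, 8 of the 14 core genes and 4 of the 5 genes for Psmb10, PA28 and assembly were lower in KO1. None was higher, while 18.5% of all genes were lower.

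Of the 20 other heavy chain genes, 15 were tested, and 7 fell and 5 rose in KO1, and 5 fell and 4 rose in KO2 (80% and 60% called). H2-Q7, a nonclassical class I gene, was at 22 to 38.5 CPM in the controls, 0.105, 0.323 and 0.303 CPM in KO1 and 0.548, 0.226 and 0.444 CPM in KO2. It was almost lost in both clones, falling by 6.8 ± 0.49 and 6.1 ± 0.47 on the log2 scale (adjusted p = 2.9e-06 and 6.0e-06, edgeR). H2-Q4, of the same Q region, was at 39.0, 20.7 and 23.6 CPM in the controls, 1.59, 2.02 and 1.44 CPM in KO1 and 25.4, 25.9 and 19.3 CPM in KO2. The fall of H2-Q4 was therefore seen in KO1 (-4.04 ± 0.28, adjusted p = 2.5e-06, edgeR), and its value in KO2 was -0.24 ± 0.25 (adjusted p = 0.44, edgeR). H2-T23, which encodes Qa-1, a ligand of an inhibitory natural killer cell receptor, fell by 1.11 ± 0.28 in KO1 (adjusted p = 0.0079, edgeR) and had a value of 0.03 ± 0.28 in KO2. With the clones pooled, H2-T24 had the largest rise of the list among genes with a mean of at least 1 CPM, from 0.303, 0.332 and 0.392 CPM in the controls to between 1.04 and 1.83 CPM in the clone libraries (log2 change 1.95 ± 0.27 in KO1 and 2.33 ± 0.27 in KO2). In KO1 the rises of Hfe (2.3 ± 0.11) and Fcgrt (2.17 ± 0.22), named after their values were seen, were larger. H2-Q4, H2-Q7 and H2-T23 share 43.45%, 48.14% and 48.4% of their 31-base words with transcripts of other genes, so their levels are less certain than those of the members.

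**Figure D4:**
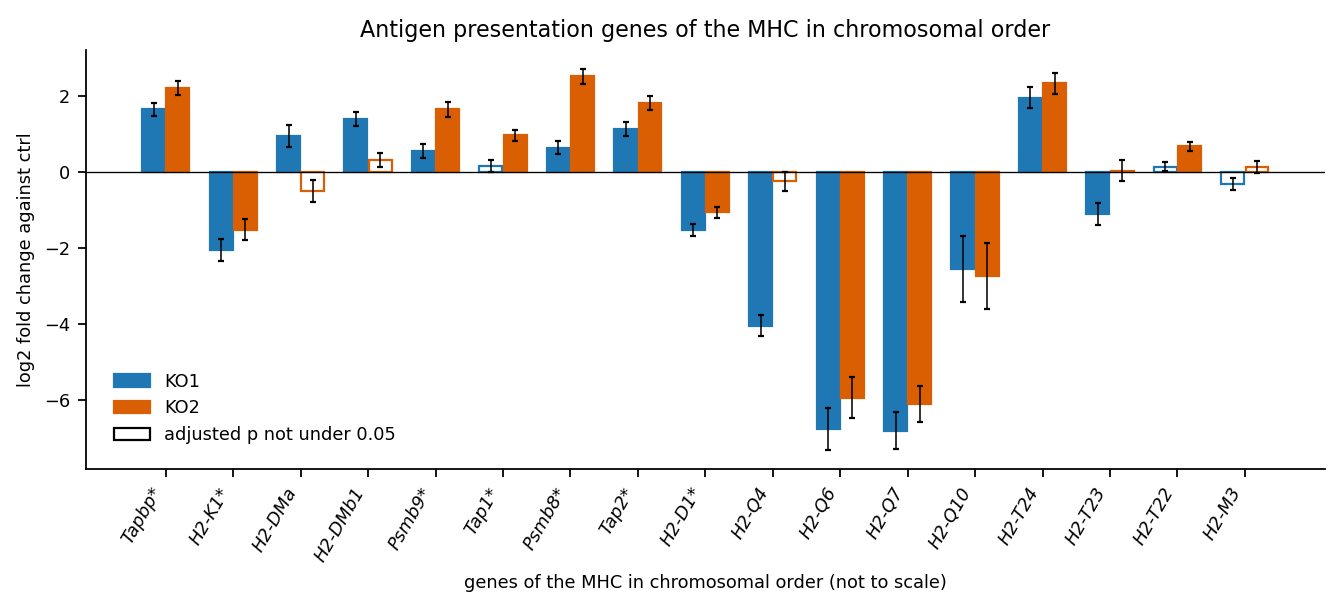
Log2 fold change against the control cells (vertical axis, with standard error) in KO1 (blue) and KO2 (orange), in chromosomal order and not to scale. Drawn are tested members, other class I heavy chain genes and MHC class II genes that the annotation placed on chromosome 17, with a mean of at least 1 CPM. Asterisks mark members, and open bars did not reach an adjusted p under 0.05. Tapbp and the Psmb9, Tap1, Psmb8 and Tap2 cluster lie above 0, with H2-K1 between them and H2-D1 beyond them below 0.

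Of 8 peptide loading and trimming genes, 4 rose and 1 fell in KO1, and 4 rose and none fell in KO2, so that 62.5% and 50% of the list were called, near the shares of all genes. Calr, the calreticulin chaperone of the loading complex, was at 624.6, 718 and 650.0 CPM in the controls, 1498, 1569 and 1854 CPM in KO1 and 931, 988 and 1116 CPM in KO2. It rose more in KO1 (1.3 ± 0.13, adjusted p = 3.1e-05, edgeR) than in KO2 (0.61 ± 0.13, adjusted p = 0.0039, edgeR), and the difference between the clones passed (0.7 ± 0.13, adjusted p = 0.0033, edgeR), in the opposite order to the members. Erap1, which trims peptides in the endoplasmic reticulum, rose 3.15-fold in KO2 (1.66 ± 0.2, adjusted p = 1.2e-04, edgeR) and had a value of 0.3 ± 0.2 in KO1 (adjusted p = 0.22, edgeR). Tapbpl, a tapasin-like peptide editor, fell by 0.45 ± 0.16 in KO1 (adjusted p = 0.037, edgeR, held in 11 of 15 alternative fits) and had a value of 0.07 ± 0.16 in KO2.

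Of 17 genes tested among 18 transcription factors of class I genes, 7 rose and 5 fell in KO1 (70.6% called). In KO2 7 rose and 4 fell (64.7% called), but with upper-quartile scaling 2 rose and 4 fell there. Irf1, an activator of class I promoters, was at 96.2, 62.4 and 85.0 CPM in the controls, 137, 231 and 725 CPM in KO1 and 354, 215 and 127 CPM in KO2. Every clone library was above the controls, but the spread within the clones was wide, and Irf1 passed in KO1 (2.17 ± 0.6, adjusted p = 0.012, edgeR) and not in KO2 (1.51 ± 0.59, adjusted p = 0.059, edgeR). Without KO1 replicate 3 the KO1 change of Irf1 was 1.19, and its call was lost without control replicate 2 (1.93, adjusted p = 0.055, edgeR) and with no filter on low counts (adjusted p = 0.071, edgeR). In KO2 Irf1 passed in 5 of 15 alternative fits, among them DESeq2 (adjusted p = 0.016) and edgeR on the 6 libraries compared (adjusted p = 0.0081). Irf2, which can repress Irf1 targets, fell by 0.6 ± 0.11 in KO1 and 0.61 ± 0.11 in KO2, and Irf8, which is known from haematopoietic cells, was at 5.15 to 7.22 CPM in the controls and at most 0.112 CPM in the clones. Rfx5, a partner of Nlrc5 on class I promoters, rose by 1.01 ± 0.13 in KO1 (adjusted p = 1.1e-04, edgeR) and by 0.35 ± 0.13 in KO2 (adjusted p = 0.045, edgeR), the latter called in only 2 of 15 alternative fits. Ciita, the class II counterpart of Nlrc5, was at 0.284 CPM or less in every library and was not tested.

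Among 11 interferon receptor, kinase and inhibitor genes, 4 rose and 2 fell in KO1, and 3 rose and 2 fell in KO2, so that 54.5% and 45.5% were called, below the shares of all genes. Ifngr1, the ligand-binding chain of the interferon-gamma receptor, was at 220, 213 and 270.3 CPM in the controls, 113, 129 and 78.5 CPM in KO1 and 306, 299 and 235 CPM in KO2. It fell in KO1 by 1.13 ± 0.19 (adjusted p = 7.5e-04, edgeR) and had a value of 0.26 ± 0.19 in KO2 (adjusted p = 0.29, edgeR). Jak2, a kinase of this receptor, fell by 1.94 ± 0.12 in KO1 (adjusted p = 1.1e-06, edgeR) and by 0.69 ± 0.11 in KO2 (adjusted p = 7.2e-04, edgeR). Ifngr2, the signalling chain, had values of 0.29 ± 0.14 and 0.2 ± 0.14, which did not pass. Socs1, an inhibitor of JAK kinases, rose by 1.92 ± 0.4 in KO1 (adjusted p = 0.0024, edgeR) and 1.34 ± 0.39 in KO2 (adjusted p = 0.017, edgeR), with 25.8 CPM in KO1 replicate 3 against 8.02 to 12.8 CPM in the other clone libraries. Its KO2 call was lost without control replicate 1, control replicate 3 or KO2 replicate 3 (adjusted p = 0.051 to 0.058, edgeR).

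Of 17 genes known to respond to interferon-gamma, 4 rose and 4 fell in KO1, and 11 rose and 1 fell in KO2. In KO1 47.1% of the list was called, below the 59.8% of all genes, and in KO2 70.6%, with 64.7% higher against 25.2% of all genes. Their median log2 change was 0.02 in KO1 and 1.26 in KO2, beside 0.02 and 0.0 for all genes. Tgtp2, an interferon-inducible GTPase, was at 0.135, 0.221 and 0.443 CPM in the controls, 3.13, 2.05 and 0.686 CPM in KO1 and 6.54, 7.05 and 4.02 CPM in KO2. It rose by 2.89 ± 0.61 in KO1 and 4.47 ± 0.64 in KO2 (adjusted p = 0.0025 and 2.9e-04, edgeR). Tgtp1, near it on the same strand, had higher means: 6.48 CPM in the controls, 5.38 CPM in KO1 and 36.1 CPM in KO2. The log2 change of Tgtp1 was -0.27 ± 0.46 in KO1 (adjusted p = 0.63, edgeR) and 2.47 ± 0.48 in KO2 (adjusted p = 0.0022, edgeR). How reads were divided between Tgtp1 and Tgtp2 was not tested. Gbp8, a guanylate-binding protein, fell in both clones, from 7.35, 4.69 and 8.95 CPM in the controls to between 0.621 and 1.5 CPM. Its span overlaps those of Gbp4 and Gbp9 on the same strand, and how reads were divided among them was not tested. Between the clones, 10 of the 17 genes were lower in KO1 and 1 was higher, while 18.5% of all genes were lower and 20.2% higher.

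Beside Cd274, 14 of 17 further checkpoint ligands and PD-L1 partners were tested, and 8 fell and 3 rose in KO1, and 8 fell and 2 rose in KO2. The share that fell was 57.1% in each clone, beside 29.9% of all genes in KO1 and 26.1% in KO2. Cmtm6, which keeps PD-L1 at the cell surface, was at 54.8, 54.5 and 60.6 CPM in the controls, 32.2, 33.0 and 35.2 CPM in KO1 and 39.5, 39.0 and 29.8 CPM in KO2. It fell by 0.76 ± 0.13 in KO1 and by 0.65 ± 0.13 in KO2 (adjusted p = 6.1e-04 and 0.0018, edgeR). Cd47, a signal that restrains phagocytosis, fell by 1.83 ± 0.15 in KO1 and by 0.67 ± 0.15 in KO2 (adjusted p = 6.8e-06 and 0.0037, edgeR). Cd276, which encodes B7-H3, had values of -0.04 ± 0.11 in KO1 and 0.32 ± 0.11 in KO2 (adjusted p = 0.8 and 0.037, edgeR), the latter called in 5 of 15 alternative fits. Pdcd1lg2, which encodes PD-L2, was at 0.223 CPM or less in every library and was not tested. Icosl, a costimulatory ligand, was at 8.0, 3.71 and 14.4 CPM in the controls and at 0.65 CPM or less in the clones. Vtcn1, which encodes the inhibitory ligand B7-H4, rose from at most 0.164 CPM in the controls to 1.15 to 1.44 CPM in KO1 and 6.52 to 7.25 CPM in KO2 (log2 change 3.43 ± 0.32 and 5.8 ± 0.34).

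**Figure D5:**
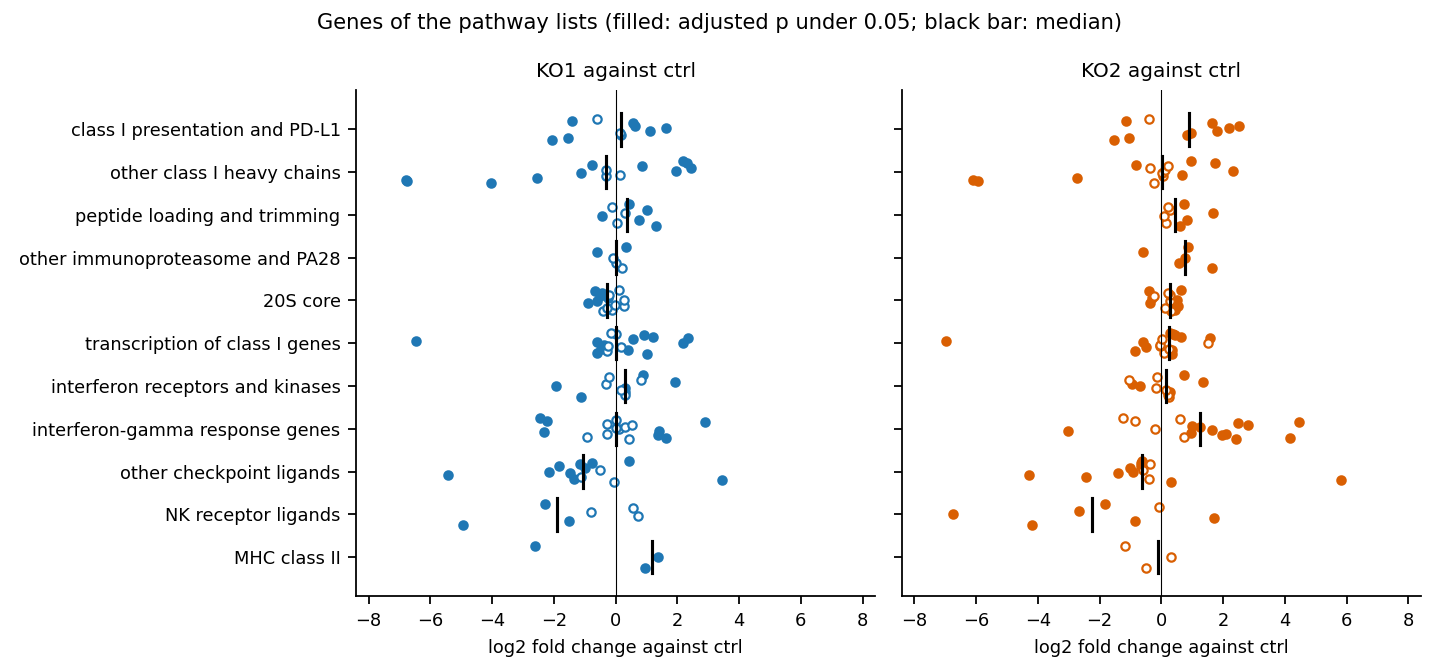
Log2 fold change against the control cells (horizontal axis) of each tested gene of the members and of the pathway lists in KO1 (left) and KO2 (right); filled points reached an adjusted p under 0.05, the black bar is the median of the list, and a gene with no more than 3 counts in each library of a compared group is left out. The interferon-gamma response list has a median of 0.02 in KO1 and 1.26 in KO2, and the members have medians of 0.16 and 0.89.

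Likeness of pattern was described by Pearson's r of log2 CPM over the 9 libraries, which share groups and so rise and fall together by group. Of 10877 genes with a mean of at least 5 CPM, those most like H2-K1 were Pard3 (r = 0.99), Cyb5b (0.988), Mipol1 (0.986), Ing2 (0.986) and Rnf220 (0.985). Those most like Cd274 were Oga (0.945), Klf6 (0.941), Sqstm1 (0.923), Ciart (0.923) and Dnajb9 (0.922). Among the 10 genes, r was 0.98 for H2-K1 with H2-D1, 0.98 for Psmb8 with Psmb9 and with Tap1, and 0.97 for Tap2 with Tapbp. H2-K1 had r of 0.88 with Nlrc5, 0.8 with Cd274, -0.27 with B2m and -0.76 with Tapbp.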

How the data were processed

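RNA-seq libraries of PPTR cells (3 control, 3 KO1 and 3 KO2) were analysed from the deposited table of counts per gene symbol. Per the study's methods and the submitters' processing notes, the authors pseudoaligned stranded paired-end reads with kallisto 0.46.1 to GENCODE M24 transcripts of GRCm38 (mm10), and the deposited values are estimated counts, all whole numbers, with no normalization. The step that summed transcripts to genes is not given in the sources used here. Groups came from the sample labels, and replicates were numbered in the order of the samples, so that no library is paired with another.

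Low counts were removed with filterByExpr and library sizes scaled by TMM in edgeR 4.0.16, run in R 4.3.3. A quasi-likelihood fit of 3 groups tested KO1 and KO2 against the controls and against one another. Both clones against the controls were tested in a fit of 2 groups. Unless another fit is named, adjusted p-values are from edgeR's quasi-likelihood test, two-sided, with Benjamini-Hochberg adjustment over 17672 genes and a threshold of 0.05. The ± after a log2 change is its standard error, taken as the size of the change divided by the square root of the test's F statistic. CPM are scaled by TMM, and log2 CPM used a prior count of 2. A count of 3, worth 0.0239 to 0.0554 CPM, was taken as the limit of detection. Library totals of 53415907 to 125223073 counts make counting error small for the members other than Nlrc5.

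The members and lists were chosen with earlier results of these data known. The text names the members, a fixed set of pathway genes, the largest rise and fall of each list among called genes whose mean reached 1 CPM, and the 5 genes most like H2-K1 and Cd274; other genes were named after their values were seen, and some genes and alleles are not reported here. Lists are described by counts and medians, with no set test. Positions, lengths and 31-base words came from GENCODE M21, another release than that of the counts, and promoter windows from RefSeq. Alternatives were limma-voom (limma 3.58.1), DESeq2 1.42.0, upper-quartile scaling, other filters, the compared libraries alone, the average of the clone contrasts and leaving out each library, and merged exons as gene lengths, which for the shares and ratios was chosen after seeing the data. The fits were tested on simulated counts.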

Additional observations from a re-analysis of the deposited data

Results flagged for a closer look

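The members of the pathway that changed by different amounts in the clones were taken up because the difference itself passed edgeR's quasi-likelihood test of KO1 against KO2 (adjusted p under 0.05). On the log2 scale, the difference was -0.47 for H2-D1, -0.65 for B2m, -0.82 for Tap1, -0.69 for Tap2, -0.56 for Tapbp, -1.87 for Psmb8 and -1.09 for Psmb9, all lower in KO1. The calls of Tap1, Tap2, Psmb8 and Psmb9 held in each of 15 alternative fits, those of B2m in 14, H2-D1 in 11 and Tapbp in 9.

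Among the other genes named, the difference between the clones also passed for proteasome genes, at -1.4 for Psmb10, -0.55 for Psme1, -0.85 for Psme2, -0.66 for Psmb5, -0.52 for Psmb7, -0.51 for Pomp and -0.53 for Psma6. It passed for the class I and loading genes H2-T23 (-1.14), H2-Q4 (-3.8), Erap1 (-1.35), Tapbpl (-0.52) and Calr (0.7). It passed for Rfx5 (0.66), a partner of Nlrc5, for the interferon pathway genes Ifngr1 (-1.39), Jak2 (-1.25) and Tgtp2 (-1.58), and for the surface ligands Cd276 (-0.36), Cd47 (-1.15) and Vtcn1 (-2.37). Rfx5 and Calr were higher in KO1, and the others were lower there. Only genes that passed are listed here, and 38.6% of all genes tested passed this comparison, 20.2% higher and 18.5% lower in KO1. The call of Tgtp2 held in 7, that of Cd276 in 9 and that of Tapbpl in 12 of 15 alternative fits, and those of the other genes of this paragraph held in each.

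Of 45 genes checked over the 6 clone libraries pooled, 2 had a library that stood apart by Dixon's test. Many of these genes differed between the clones, so the rate of 1 in 20 set for a single group need not hold here. Socs1 was at 25.8 CPM in KO1 replicate 3, above the other clone libraries. H60b, a ligand of the natural killer cell receptor NKG2D, was at 0.1035 CPM in KO2 replicate 3, when the other clone libraries had 0.0343 CPM or less and the controls 4.78 to 6.66 CPM. That H60b value is near the limit of detection, which was 0.0444 CPM in KO2 replicate 3.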

How the results depend on the processing

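Of 600 values of members recomputed under alternatives, 558 kept direction and call, 36 lost the call, 4 gained it and 2 turned. Tap1 in KO1 turned without WT replicate 2 (range over libraries left out -0.02 to 0.32), and the clone difference of Cd274 without KO2 replicate 1 (-0.56 to 0.04). Leaving out 1 library at a time, members called ran from 5 to 7 in KO1, 8 to 9 in KO2, 5 to 8 with the clones pooled and 4 to 8 between the clones. The pooled count was 5 with limma-voom and 9 for the average of the clone contrasts, and DESeq2 gave 7. The H2-K1 difference between the clones was gained without KO2 replicate 3 (-0.83, adjusted p = 0.014, edgeR), and that of Tapbp was lost with upper-quartile scaling (-0.49, adjusted p = 0.056, edgeR).

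Of 1335 values of pathway genes, 1236 kept direction and call and 18 turned, all of them values that had not passed. Psme1 in KO1 was -0.03 with DESeq2, -0.04 without a filter and -0.01 with the compared libraries alone (-0.1 to 0.08 over libraries left out). H2-T23 in KO2 was -0.01 with DESeq2 and under both other filters and -0.04 with upper-quartile scaling (-0.21 to 0.29 over libraries left out). Over libraries left out, Cd276 in KO1 ran from -0.15 to 0.08, H2-Q4 in KO2 from -0.44 to 0.08 and Tapbpl in KO2 from 0.0 to 0.16.

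Some list counts moved by over 1.5 times. In KO1, genes called in the immunoproteasome list were 1 with DESeq2, without a filter and with the compared libraries alone, and interferon-gamma response genes 5 with the filter at 1 CPM. In KO2, transcription genes called were 6 with upper-quartile scaling and 7 with either other filter, and MHC class II genes 2 with DESeq2 or no filter and 0 with the filter at 1 CPM or the compared libraries alone. With the clones pooled, the immunoproteasome count was 1 without a filter and 5 for the average of the clone contrasts, the 20S core count 2 without a filter, the interferon-gamma response count 12 for that average, and the MHC class II count 1 with limma-voom, no filter or the filter at 1 CPM. Between the clones, natural killer cell ligands were 2 with limma-voom, 3 with DESeq2 and 0 under both other filters and with the compared libraries alone.

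Over libraries left out, list counts ran in KO1 from 3 to 5 for peptide loading and 1 to 3 for the immunoproteasome list. In KO2 they ran from 5 to 10 for the 20S core, 6 to 13 for transcription, 3 to 5 for interferon receptors and 1 to 2 for MHC class II. With the clones pooled they ran from 2 to 4 for peptide loading, 1 to 3 for the immunoproteasome list, 1 to 6 for the 20S core, 4 to 10 for transcription, 2 to 5 for interferon receptors, 5 to 8 for checkpoint ligands and 1 to 2 for MHC class II, and between the clones from 0 to 3 for natural killer cell ligands. The cause was not tested. No paired analysis was possible because the replicate numbers follow the order of the samples.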

Other observations

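Natural killer cells attack cells that carry activating ligands or lack class I molecules. Of 11 genes listed as ligands of their receptors, 8 had a row in the count table and were tested. The list does not hold activating ligands alone: Clec2d, Mill1 and Mill2 stand in it beside Raet1, Ulbp1 and H60 genes. Of those tested, 5 fell in KO1, and 6 fell and 1 rose in KO2, with medians of -1.9 and -2.24 on the log2 scale. The share called was 62.5% in KO1, near the 59.8% of all genes, and 87.5% in KO2, against 51.3%, and the share that fell was 62.5% and 75.0%, beside 29.9% and 26.1% of all genes. H60b, a ligand of NKG2D, was at 5.37, 4.78 and 6.66 CPM in the controls and at 0.1035 CPM or less in the clone libraries. H60b lies within the span of Raet1e on the same strand, and how reads were divided between them was not tested. Ulbp1, another ligand of NKG2D, was at 33.7, 24.8 and 26.2 CPM in the controls, 50.9, 71.5 and 18.4 CPM in KO1 and 89.2, 83.3 and 103.7 CPM in KO2. It rose in KO2 (log2 change 1.7 ± 0.4, adjusted p = 0.0066, edgeR's quasi-likelihood test) and had a value of 0.73 ± 0.39 in KO1 (adjusted p = 0.14, edgeR). Ulbp1 passed in KO1 in 1 of 15 alternative fits, that without KO1 replicate 3 (1.12, adjusted p = 7.2e-04, edgeR).

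Of 11 MHC class II genes, 4 were tested, and 3 rose and 1 fell in KO1, and 1 rose in KO2, or 100% and 25% of those tested, beside 59.8% and 51.3% of all genes. Cd74, the invariant chain, was at 81.7, 17.9 and 18.1 CPM in the controls, 6.94, 4.75 and 7.45 CPM in KO1 and 20.4, 21.1 and 10.9 CPM in KO2. Its fall passed in KO1 (-2.62 ± 0.61, adjusted p = 0.0048, edgeR) and not in KO2 (-1.17 ± 0.58, adjusted p = 0.12, edgeR), and control replicate 1 stood far above the other controls. Without it the change was -1.51 in KO1 and -0.05 in KO2. H2-DMb1, a class II peptide editor named after its values were seen, rose in KO1 (1.39 ± 0.19, adjusted p = 1.7e-04, edgeR) and had a value of 0.32 ± 0.18 in KO2. H2-M10.1, a class I gene also named after its values were seen, was at 3.92, 0.959 and 1.42 CPM in the controls and at 0 counts in all 6 clone libraries.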
